A study of Mus musculus with 10 samples.

Results

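T cells and natural killer (NK) cells are lymphocytes that are scarce in the healthy renal cortex, and their genes were followed here in mice with aristolochic acid nephropathy (AAN). The gene set held 44 of the 21792 genes with deposited values: chains of the T cell receptor, coreceptors, signalling and costimulatory molecules, regulatory T cell genes, inhibitory receptors, granule proteins with interferon gamma, lineage transcription factors and NK receptors. The genes were taken from a list of symbols drawn up with earlier results of these data known, and each symbol matched 1 Ensembl gene. RNA from the renal cortex of 10 wild type mice was sequenced at day 28, and each library came from 1 mouse. The 4 sham mice had received PBS, and the 6 AAN mice had been given aristolochic acid, a plant toxin that injures the proximal tubule, in 1 injection into the peritoneum (5 mg/kg). The methods of the study describe AAN mice as male C57BL/6 mice aged 8 weeks with littermate controls, whereas the labels give neither sex nor age.

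The T cell receptor recognises peptides on MHC molecules and signals through the CD3 chains, with CD4 on helper and regulatory cells and CD8 on cytotoxic cells as coreceptors. Regulatory T cells depend on FOXP3 and restrain other lymphocytes. Activated or chronically stimulated T cells carry inhibitory receptors such as PD-1, LAG-3, TIM-3 and TIGIT, and cytotoxic T cells and NK cells kill with perforin and granzymes.

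Of the 44 genes, 43 had a mean of at least 0.1 FPKM, a level scaled to transcript length and library size, and were tested, and 41 were called higher in AAN mice, 1 of them, *Trbd1*, on 1 fragment per AAN mouse. A gene was called when its adjusted p in limma was at most 0.05 and its fold change at least 2, and 35.8% of all 17129 genes tested rose by that rule. The mean for testing was taken over both groups. Any gene with a sham mean under 0.1 FPKM, such as *Foxp3*, *Pdcd1* or *Cd69*, was thus tested only if its AAN mean was higher. With no such filter, 42 of the 44 members were called higher, against 28.32% of all 21792 genes. By the adjusted p alone, all 43 members were called higher, against 55.4% of all genes. No member fell, against 3.43% of all genes. The members' median log2 fold change was 4.21, on log2(FPKM + 0.1), against a median of 0.75 over all genes. All 43 lay above that median of all genes, and 37 lay at or above the 90th percentile. The groups did not overlap in 42 of the 44 genes, with every AAN mouse above every sham mouse, as in 40.3% of the 17129 genes tested. The 42 include *Trbd1*, at 1 fragment in each AAN mouse, and *Klrb1c*, which was outside the test. The 2 genes tested and not called were *Ncr1* and *Tcf7l2*. *Klrb1c* was too low to test.

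The depth recovered from the FPKM values was 15761500 to 17423000 fragments in sham mice and was 13313000 to 16463000 fragments in AAN mice. Mitochondrial genes held 39.5% to 61.4% of the FPKM in sham mice against 21.4% to 55.0% in AAN mice, the highest in sham mouse B634. Without B634, 42 members were called higher. In B634, 15 members were listed at 0, against 4, 13 and 5 in the other sham mice, and no member was at 0 in an AAN mouse. Changes here should be read against the shift of 0.75 over all genes, since 91.2% of all called genes rose. That share was 64.4% after scaling by the median of ratios and 56.1% after quantile normalization. Under these scalings 40 and 37 members were called higher, against 19.0% and 14.9% of all genes tested. The mean exceeded 1 FPKM for 4 of the 44 members among sham mice and for 36 among AAN mice, and against the low sham values a fold change with 0.1 added understates the ratio of the levels. In bulk tissue, fewer cells of a type and less RNA per cell cannot be told apart. The samples are labelled as renal cortex cells, and proximal tubule markers were at a summed 2014 to 4184 FPKM in sham mice.

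**Figure D1:**
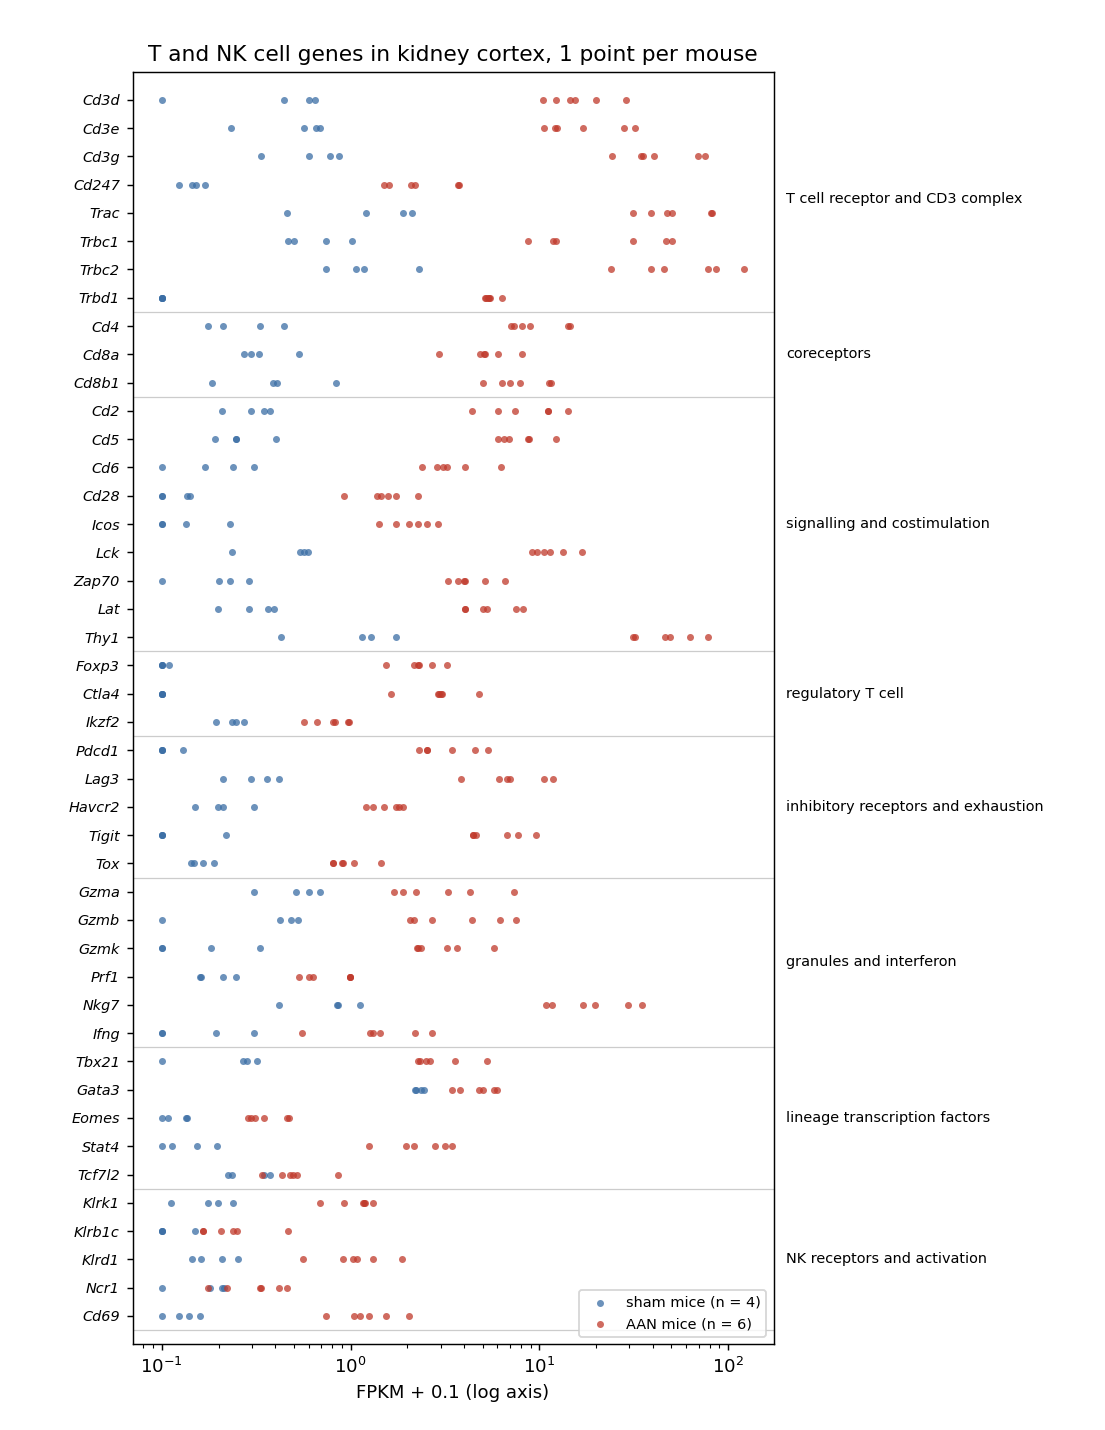
Level of each of the 44 genes in each mouse, as FPKM + 0.1 on a log axis, with sham mice (n = 4) in blue and AAN mice (n = 6) in red and the genes grouped by role. A point at 0.1 is a value of 0. The groups overlap only in *Tcf7l2* and *Ncr1*.

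The receptor genes are shown first as sequences, because *Trbd1* and the *Trbc* pair are 2 places where the sequence bears on the value. *Trbd1* is a diversity segment of the T cell receptor beta chain, annotated as 12 bases at chr6:41533201-41533212 on the plus strand of GRCm38. *Trbc1* and *Trbc2* encode the constant region of the same chain at neighbouring loci. Their coding regions of 518 bases each differ at 23 positions, an identity of 95.56%, and the longest run they share is 259 bases. The first coding exon of 375 bases holds 1 of the differences and the 143 bases after it hold 22. Coding bases 219 to 518 are printed, spliced, from GENCODE M21, for *Trbc1* at chr6:41538436-41539662 and for *Trbc2* at chr6:41546948-41548178, both on the plus strand, with the bases that differ in capitals.
Trbd1: gggacagggggc
Trbc1: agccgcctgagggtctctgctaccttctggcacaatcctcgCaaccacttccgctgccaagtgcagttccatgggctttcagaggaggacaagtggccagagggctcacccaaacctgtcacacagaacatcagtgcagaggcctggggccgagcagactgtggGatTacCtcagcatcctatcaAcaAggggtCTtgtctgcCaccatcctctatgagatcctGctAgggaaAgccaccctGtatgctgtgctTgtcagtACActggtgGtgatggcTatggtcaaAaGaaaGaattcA
Trbc2: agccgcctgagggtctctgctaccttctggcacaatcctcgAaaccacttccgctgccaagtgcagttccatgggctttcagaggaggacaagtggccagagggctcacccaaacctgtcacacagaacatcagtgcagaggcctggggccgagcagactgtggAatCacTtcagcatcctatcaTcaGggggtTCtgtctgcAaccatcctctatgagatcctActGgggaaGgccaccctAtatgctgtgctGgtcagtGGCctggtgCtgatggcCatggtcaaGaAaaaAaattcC
Fragments from the shared stretch could be split between *Trbc1* and *Trbc2* in the counting, so that each value is uncertain.

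Of the 8 T cell receptor and CD3 genes, 7 rose, with a median log2 fold change of 5.40, and *Trbd1*, the other one, is described on its own. *Cd3e*, a signalling chain of the receptor, was at 0.557, 0.132, 0.592 and 0.465 FPKM in the 4 sham mice and at 10.5 to 32.1 FPKM in AAN mice, with a median of 14.6. Its log2 fold change was 5.11 ± 0.39 (SE; limma, adjusted p = 7.5e-07). *Cd3e* overlaps 2 other annotated genes. *Cd3g*, the gamma chain, rose from 0.236 to 0.770 FPKM in sham mice to 24.2 to 75.5 FPKM in AAN mice, a log2 fold change of 6.14 ± 0.35. The lowest AAN mouse stood far above the highest sham mouse in both genes.

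*Cd3d*, the delta chain, was listed at 0 in sham mouse B634, at 0.345 to 0.550 FPKM in the other sham mice and at 10.3 to 28.5 FPKM in AAN mice. *Cd247*, the zeta chain that carries most of the signalling motifs, had the lowest level per length of the CD3 genes, with 0.0229 to 0.0691 FPKM in sham mice and 1.41 to 3.67 FPKM in AAN mice. *Cd247* overlaps 6 other annotated genes, among them *Pou2f1*. In AAN mice the *Cd3g* level was 2.31 to 2.97 times the *Cd3e* level per length, and the *Cd247* level was 0.112 to 0.169 times the *Cd3e* level.

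The constant region of the alpha chain, *Trac*, rose from 0.363 to 2.03 FPKM in sham mice to 31.4 to 82.4 FPKM in AAN mice, a log2 fold change of 5.40 ± 0.42. *Trbc2* was at 1.07, 0.638, 0.966 and 2.19 FPKM in sham mice and at 23.7 to 121.8 FPKM in AAN mice, with a median of 61.9. That is 7 to 25 fragments in a sham mouse and 257 to 1122 fragments in an AAN mouse. *Trbc1* was at 0.369 to 0.923 FPKM in sham mice and at 8.56 to 50.4 FPKM in AAN mice. *Trbc1* made up 22.5% to 48.9% of the level of both genes in sham mice against 20.9% to 37.5% in AAN mice, the highest AAN share being in mouse B630.

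*Trbd1* had the smallest p of all 17129 genes tested, and it rested on 1 fragment per AAN mouse. It was listed at 0 in all sham mice and at 5.06 to 6.22 FPKM in AAN mice, with a median of 5.29. Over 12 bases, each of the 6 AAN values equals 1 fragment at that mouse's depth. A value of 0 allows up to 3 fragments, which for this gene is 14.4 to 15.9 FPKM in a sham mouse, so that a difference between the groups was not detectable at this depth and no fold change is given. The limma fit nonetheless returned an adjusted p of 2.03e-09. Without *Trbd1*, 40 of the other 43 genes were called higher. With *Trbd1* left out and *Ctla4* set to the fold over a floor of 3 fragments given with it, the median log2 fold change of the remaining 42 genes was 4.19.

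**Figure D2:**
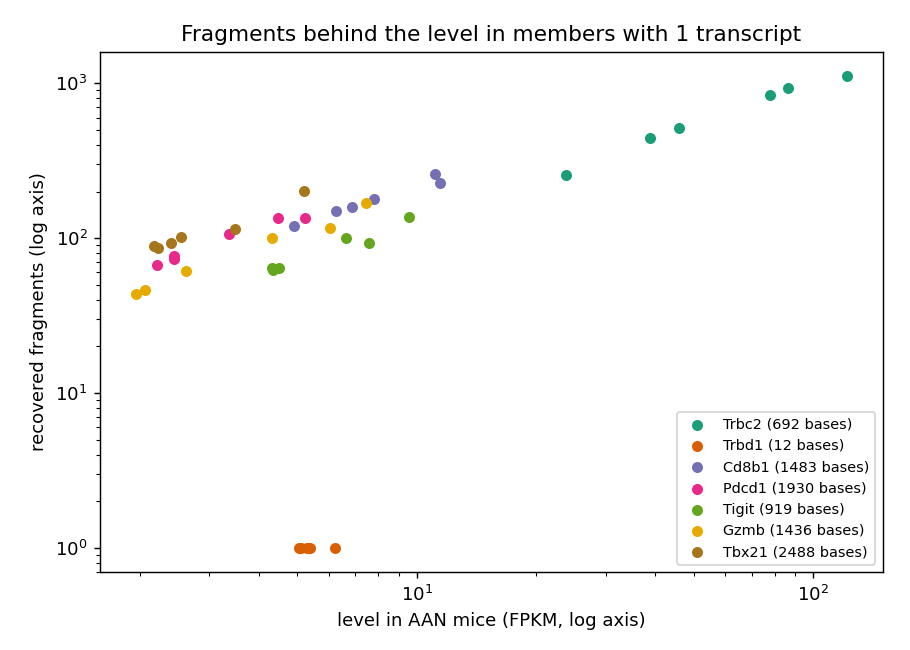
Recovered fragments (log axis) against the level in FPKM (log axis) in the 6 AAN mice, for the 7 members with 1 annotated transcript, coloured by gene. *Trbd1* lies at 1 fragment in every AAN mouse, at levels within the range of *Tigit*, which had 62 to 138 fragments.

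The coreceptor genes all rose. *Cd4* was at 0.346, 0.0763, 0.110 and 0.232 FPKM in sham mice and at 7.01 to 14.4 FPKM in AAN mice, with a median of 8.38, a log2 fold change of 5.14 ± 0.31 (adjusted p = 1.92e-07). *Cd8a*, the CD8 alpha chain, was at 0.431, 0.172, 0.197 and 0.229 FPKM in sham mice and at 2.83 to 7.98 FPKM in AAN mice, with a median of 5.04, a log2 fold change of 3.90 ± 0.28. *Cd8b1*, the CD8 beta chain, which marks conventional cytotoxic T cells, had 2 to 18 fragments in sham mice against 120 to 260 in AAN mice, and its log2 fold change was 4.31 ± 0.37. No AAN mouse overlapped a sham mouse in any of these genes.

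*Cd8a* rose less than *Cd4*. The difference within a mouse, log2(FPKM + 0.1) of *Cd8a* minus that of *Cd4*, was −0.02 to 0.63 in sham mice against −1.48 to −0.29 in AAN mice. The groups did not overlap, and their means differed by −1.24 ± 0.22 (SE; p = 0.0119 in a two-sided exact permutation test, adjusted over 10 gene pairs). The smallest p that 4 against 6 mice allow is 0.00476 before adjustment. As a ratio of levels per length, *Cd8a* stood at 0.353 to 0.815 of *Cd4* in AAN mice and at 0.984 to 2.26 in sham mice, where both genes had few fragments. For *Cd8b1* minus *Cd8a* the difference between the groups was 0.41 ± 0.46, the groups overlapped and the pair did not pass (exact permutation test, adjusted p = 0.393). *Cd4* is also made by macrophages and *Cd8a* by a subset of dendritic cells. All 8 macrophage markers examined rose, from a summed 38.3 to 61.3 FPKM in sham mice to 624 to 2167 FPKM in AAN mice, and all 6 dendritic cell markers rose, from a summed 1.34 to 3.39 FPKM to 29.9 to 59.3 FPKM. Their part in the *Cd4* and *Cd8a* values was not tested.

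The 9 signalling and costimulatory genes all rose, with a median log2 fold change of 4.50. *Lck*, the kinase that phosphorylates the CD3 chains, was at 0.498, 0.134, 0.465 and 0.439 FPKM in sham mice and at 9.03 to 16.8 FPKM in AAN mice, a log2 fold change of 4.67 ± 0.28 (adjusted p = 1.92e-07). *Zap70*, the kinase recruited to those chains, rose from 0 to 0.191 FPKM to 3.19 to 6.52 FPKM. *Lat*, the adaptor that *Zap70* phosphorylates, rose from 0.0982 to 0.295 FPKM to 3.92 to 8.05 FPKM. Thus the proximal signalling genes were low in each sham mouse and raised in each AAN mouse.

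The adhesion and scavenger-like receptors *Cd2*, *Cd5* and *Cd6* had log2 fold changes of 4.81 ± 0.32, 4.92 ± 0.25 and 4.20 ± 0.34. The costimulatory receptor *Cd28* was at 0.042, 0, 0 and 0.0357 FPKM in sham mice and at 0.821 to 2.18 FPKM in AAN mice. Its relative *Icos*, found on activated T cells, was at 0.130, 0, 0 and 0.0345 FPKM in sham mice and at 1.32 to 2.80 FPKM in AAN mice. *Thy1* had the highest AAN level of these genes, 31.1 to 77.8 FPKM against 0.327 to 1.64 FPKM in sham mice. *Thy1* is also made by fibroblasts, and all 7 fibroblast markers examined rose, from a summed 16.2 to 22.2 FPKM to 116 to 263 FPKM. Their part in the *Thy1* value was not tested.

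**Figure D3:**
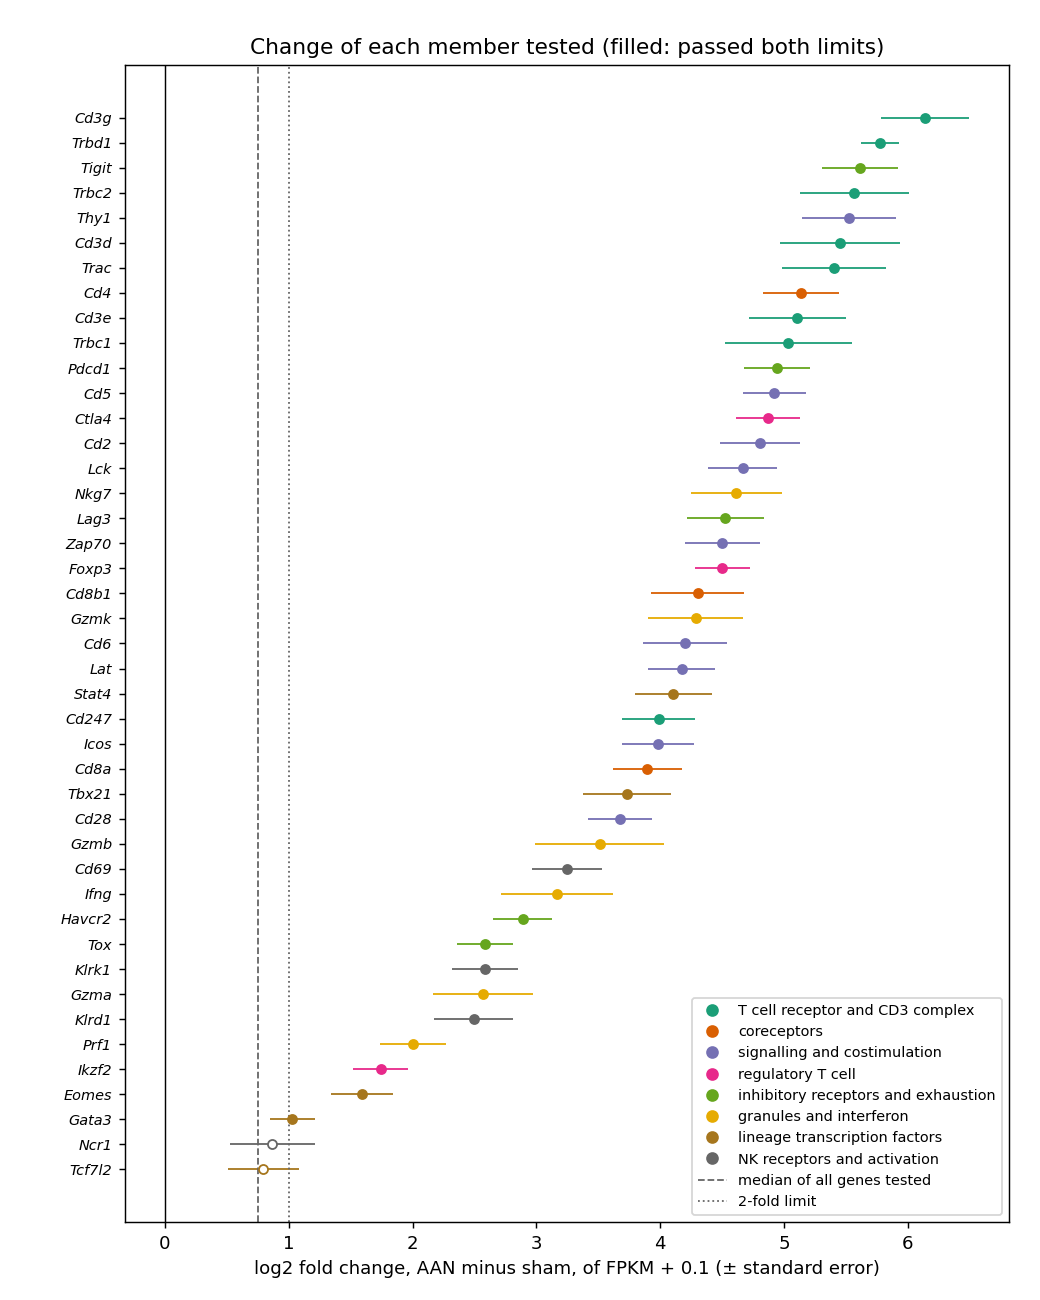
Log2 fold change, AAN minus sham, of FPKM + 0.1 for the 43 members tested, with bars for the standard error and colours for the role. Filled points passed both limits, the dashed line is the median of all genes at 0.75, and *Gata3* at 1.03 is the called gene nearest the 2-fold limit. The value of *Trbd1* rests on 1 fragment per AAN mouse.

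The regulatory T cell genes rose from levels at or near 0. *Foxp3*, the factor that defines these cells, was at 0 in 3 sham mice and at 0.00905 FPKM in the fourth, H249, and at 1.43 to 3.16 FPKM in AAN mice, with a median of 2.19 (limma, adjusted p = 1.26e-07). No ratio is given because its fragments could not be counted, and *Foxp3* overlaps 4 other annotated genes. *Ctla4*, an inhibitory receptor that these cells carry constantly, was listed at 0 in all sham mice and at 1.54 to 4.68 FPKM in AAN mice. Against the 0.0985 FPKM that 3 fragments over its longest transcript would give in the shallowest sham mouse, its AAN mean of 2.96 FPKM was 30.1-fold higher. *Ctla4* has 3 annotated transcripts, and over a shorter one that floor would be higher and the fold smaller. *Ikzf2*, the Helios gene, was the least changed of the 3, from 0.0947 to 0.172 FPKM in sham mice to 0.468 to 0.876 FPKM in AAN mice, a log2 fold change of 1.74 ± 0.22.

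In AAN mice *Foxp3* stood at 0.154 to 0.310 of the *Cd4* level per length, and *Ctla4* at 1.08 to 1.48 of the *Foxp3* level. Whether *Foxp3* moved relative to *Cd4* depended on the pseudocount. The difference between the groups in *Foxp3* minus *Cd4* was −0.63 ± 0.34 with a pseudocount of 0.1 (exact permutation test, adjusted p = 0.171), but −1.46 with 1 and 1.79 with 0.01, and both of these passed. Sham values at 0 leave that comparison without a fixed direction. Without sham mouse B607 the difference was −0.88 and passed, at an adjusted p of 0.0476 in the exact permutation test.

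All 5 genes of inhibitory receptors and exhaustion rose, with a median log2 fold change of 4.53. *Pdcd1*, which encodes PD-1, was at 0.0296, 0, 0 and 0 FPKM in sham mice and at 2.21 to 5.22 FPKM in AAN mice, with a median of 2.91. In fragments, that is 1 over all sham mice and 67 to 135 in each AAN mouse, a depth-corrected ratio of 421 with an exact 95% interval of 75.4 to 16670 that covers counting error only. *Tigit*, a receptor for nectin-like ligands, was at 0.119, 0, 0 and 0 FPKM in sham mice and at 4.33 to 9.54 FPKM in AAN mice, that is 2 fragments over all sham mice and 62 to 138 in each AAN mouse. Its ratio was 186, with an exact 95% interval of 51.1 to 1536. Neither gene had more than 2 fragments in a sham library, and both were present in each AAN library.

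*Lag3*, a receptor for MHC class II, was measurable in all sham mice, at 0.317, 0.263, 0.112 and 0.196 FPKM, and reached 3.77 to 11.7 FPKM in AAN mice, a log2 fold change of 4.53 ± 0.31. *Havcr2*, which encodes TIM-3, was at 0.0509 to 0.207 FPKM in sham mice and at 1.10 to 1.80 FPKM in AAN mice, a log2 fold change of 2.89 ± 0.24. *Tox*, a nuclear factor of exhausted T cells, rose from 0.0431 to 0.0899 FPKM to 0.704 to 1.35 FPKM, a log2 fold change of 2.59 ± 0.22. In AAN mice, per length, *Tigit* stood at 0.259 to 0.553 of *Cd3e*, *Lag3* at 0.359 to 0.556, *Pdcd1* at 0.139 to 0.281 and *Havcr2* at 0.0533 to 0.137.

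*Havcr2* rose less than *Cd3e*. The within-mouse difference was −1.81 to −0.62 in sham mice against −4.15 to −2.79 in AAN mice, without overlap, and the means differed by −2.22 ± 0.33 (exact permutation test, adjusted p = 0.0119). *Pdcd1* minus *Cd3e* differed by −0.16 ± 0.38 (exact permutation test, adjusted p = 0.690) and *Ctla4* minus *Cd3e* by −0.24 ± 0.43 (exact permutation test, adjusted p = 0.651). Both of these overlapped, and both changed sign with a pseudocount of 0.01, to 2.38 and 2.70. *Havcr2* is also made by macrophages and dendritic cells, whose markers rose as given with *Cd4*, and their part in the *Havcr2* value was not tested.

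**Figure D4:**
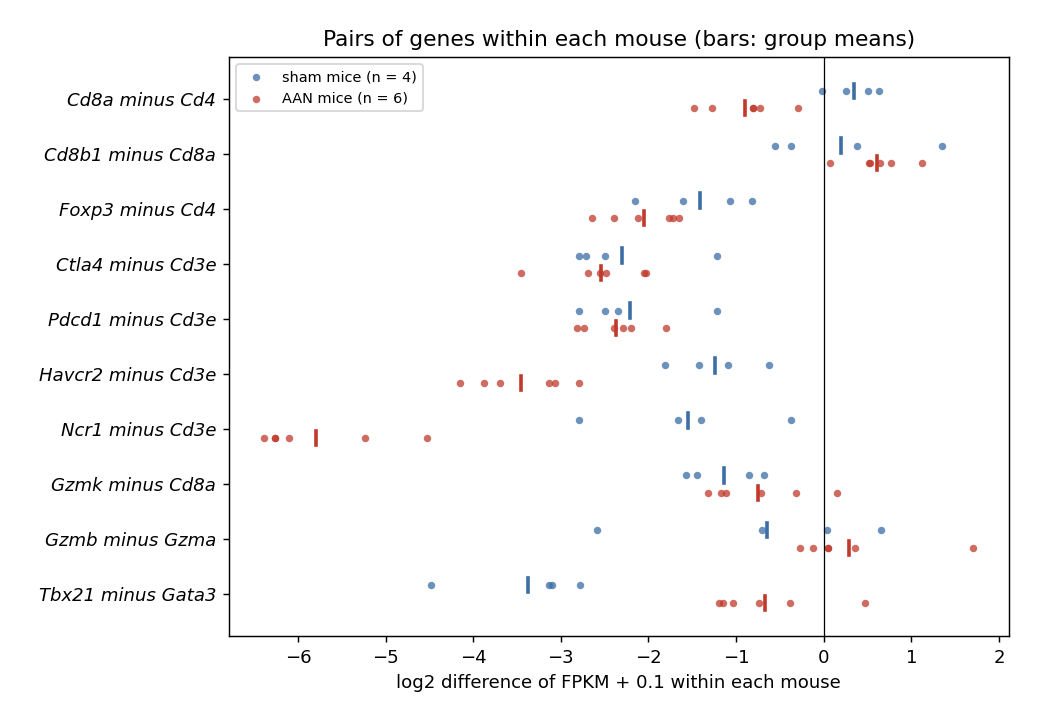
Within-mouse log2 differences of FPKM + 0.1 for the 10 gene pairs, 1 point per mouse, sham (n = 4) in blue and AAN (n = 6) in red, with bars at the group means. The groups separate in *Cd8a* minus *Cd4*, *Havcr2* minus *Cd3e*, *Ncr1* minus *Cd3e* and *Tbx21* minus *Gata3*, and overlap in the other 6 pairs.

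The granule genes and *Ifng* all rose, with a median log2 fold change of 3.34. *Nkg7*, a granule membrane protein, had the highest level, 10.7 to 34.8 FPKM in AAN mice against 0.316 to 1.02 FPKM in sham mice. *Gzmb*, a granzyme that cleaves caspases, was at 0.322, 0, 0.386 and 0.428 FPKM in sham mice and at 1.96 to 7.46 FPKM in AAN mice, or 0 to 10 and 44 to 168 fragments, a log2 fold change of 3.51 ± 0.52 (adjusted p = 0.000128). *Gzmk*, a granzyme of memory-like CD8 T cells, was at 0 in 2 sham mice and at 2.14 to 5.64 FPKM in AAN mice, a log2 fold change of 4.29 ± 0.38. *Gzmk* overlaps *Esm1*.

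*Gzma*, which NK cells hold at high levels, was measurable in each sham mouse, at 0.585, 0.503, 0.208 and 0.415 FPKM, and was at 1.60 to 7.22 FPKM in AAN mice, a log2 fold change of 2.57 ± 0.40. *Prf1*, the pore-forming perforin, had the smallest increase, from 0.0591 to 0.148 FPKM to 0.436 to 0.899 FPKM, a log2 fold change of 2.001 ± 0.267. *Ifng*, the main cytokine of type 1 responses, was at 0.0946, 0.209, 0 and 0 FPKM in sham mice and at 0.453 to 2.60 FPKM in AAN mice, a log2 fold change of 3.17 ± 0.45. Neither *Gzmb* minus *Gzma*, which differed by 0.94 ± 0.76, nor *Gzmk* minus *Cd8a*, which differed by 0.39 ± 0.32, passed (exact permutation tests, adjusted p = 0.393 for each). The latter difference was −0.38 with a pseudocount of 1 and 1.94 with 0.01, where it passed (exact permutation test, adjusted p = 0.0417).

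Among the lineage transcription factors, 4 of 5 rose. *Tbx21*, the T-bet gene of type 1 and cytotoxic cells, was at 0.184, 0, 0.171 and 0.219 FPKM in sham mice and at 2.17 to 5.20 FPKM in AAN mice, or 0 to 9 and 86 to 203 fragments, a log2 fold change of 3.73 ± 0.35. *Stat4*, which transmits interleukin-12 signals, rose from 0 to 0.0969 FPKM to 1.15 to 3.35 FPKM, a log2 fold change of 4.11 ± 0.31. *Eomes*, the T-box factor of NK and memory CD8 cells, stayed low, at 0 to 0.0353 FPKM in sham mice and 0.188 to 0.373 FPKM in AAN mice, a log2 fold change of 1.59 ± 0.25. Its sham values all lay under the 0.0484 to 0.0535 FPKM that 3 fragments would give.

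*Gata3*, the factor of type 2 helper cells, was at 2.34, 2.13, 2.27 and 2.09 FPKM in sham mice and at 3.34 to 5.88 FPKM in AAN mice. Its log2 fold change of 1.03 ± 0.18 (limma, adjusted p = 0.000502) was just past the limit, and it was not called after scaling by the median of ratios, at 0.29, or by quantiles, at 0.14. *Gata3* is also made by distal and collecting duct epithelium, and of 6 markers of those segments none was called, with a summed 352 to 758 FPKM in sham mice and 247 to 1016 FPKM in AAN mice. Their part in the *Gata3* value was not tested. *Gata3* overlaps 3 other annotated genes. *Tcf7l2*, a Wnt pathway factor made in many tissues, was at 0.124 to 0.273 FPKM in sham mice and 0.240 to 0.762 FPKM in AAN mice, with a log2 difference of 0.80 ± 0.28 (adjusted p = 0.029) that missed the fold limit, and after quantile normalization its sign changed, to −0.43.

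*Tbx21* rose more than *Gata3*. The within-mouse difference was −4.48 to −2.78 in sham mice against −1.20 to 0.47 in AAN mice, and the means differed by 2.70 ± 0.46 (exact permutation test, adjusted p = 0.0119). *Gata3* had the higher level per length in each sham mouse, and in 5 of 6 AAN mice, the exception being mouse B642.

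The lowest AAN means of the set were those of the NK receptor genes *Klrb1c* and *Ncr1*. *Ncr1*, which encodes NKp46 and marks NK cells and some other innate lymphocytes, was at 0.108, 0.0794, 0 and 0.114 FPKM in sham mice and at 0.0764, 0.361, 0.122, 0.235, 0.319 and 0.231 FPKM in AAN mice. The groups overlapped, and 3 fragments would be 0.115 to 0.127 FPKM in a sham mouse. Its log2 difference of 0.87 ± 0.34 (limma, adjusted p = 0.0436) missed the fold limit, was 1.03 and past it without AAN mouse A483, and was −0.0855 after quantile normalization. *Klrb1c*, the NK1.1 antigen, was at 0 in 3 sham mice, at 0.0498 FPKM in H249 and at 0.0654 to 0.364 FPKM in AAN mice, a mean of 0.0941 FPKM over all mice. Tested without the filter on low values, its log2 fold change was 1.07 ± 0.29 (limma, adjusted p = 0.00896).

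The other 3 genes of this group rose. *Klrk1*, which encodes the activating receptor NKG2D, rose from 0.0125 to 0.140 FPKM to 0.587 to 1.21 FPKM, a log2 fold change of 2.58 ± 0.27. *Klrd1*, which encodes CD94, rose from 0.0454 to 0.153 FPKM to 0.458 to 1.77 FPKM, a log2 fold change of 2.49 ± 0.32. Each sham value of *Klrd1* lay under the 0.187 to 0.207 FPKM that 3 fragments would give, so its fold change depends on the pseudocount. That holds for other members with sham values at or near 0 as well. Over the alternatives in processing, the log2 fold change of *Klrd1* ran from 0.87 to 3.36. That of *Stat4* ran from 1.66 to 5.99, of *Gzmk* from 1.90 to 6.27, of *Ifng* from 1.15 to 5.07 and of *Cd69* from 1.06 to 5.10. The standard errors do not cover that spread. *Cd69*, an early activation and tissue residency antigen, rose from 0 to 0.0603 FPKM to 0.639 to 1.95 FPKM, a log2 fold change of 3.25 ± 0.29.

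*Ncr1* moved less than *Cd3e*. The within-mouse difference was −2.79 to −0.37 in sham mice against −6.38 to −4.53 in AAN mice, without overlap, and the means differed by −4.24 ± 0.58 (exact permutation test, adjusted p = 0.0119). Per length, *Ncr1* stood at 0.00638 to 0.0343 of *Cd3e* in AAN mice and at 0 to 0.602 in sham mice. No sham value of *Ncr1* reached the level that 3 fragments would give in that mouse, so the sham side of this pair leans on the pseudocount. The log2 fold change was 5.11 for *Cd3e* and 0.87 for *Ncr1*.

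The AAN mice differed among themselves in most members together. Mouse B639 or B642 had the highest value in 41 of the 44 genes, against 32.1% of all genes, and mouse B614 had the lowest value in 24 genes, against 34.1% of all genes. Over the 35 genes with an AAN mean of at least 1 FPKM, *Trbd1* left out, the median level relative to the AAN mean was 0.630 in B614, 0.730 in A483, 0.841 in B666, 0.904 in B630, 1.42 in B639 and 1.45 in B642. Summed over the 44 genes, the level was 249.6 FPKM in B614 and 629.4 FPKM in B639, against 7.15 to 15.98 FPKM in sham mice. The lowest AAN sum was thus far above the highest sham sum.

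**Figure D5:**
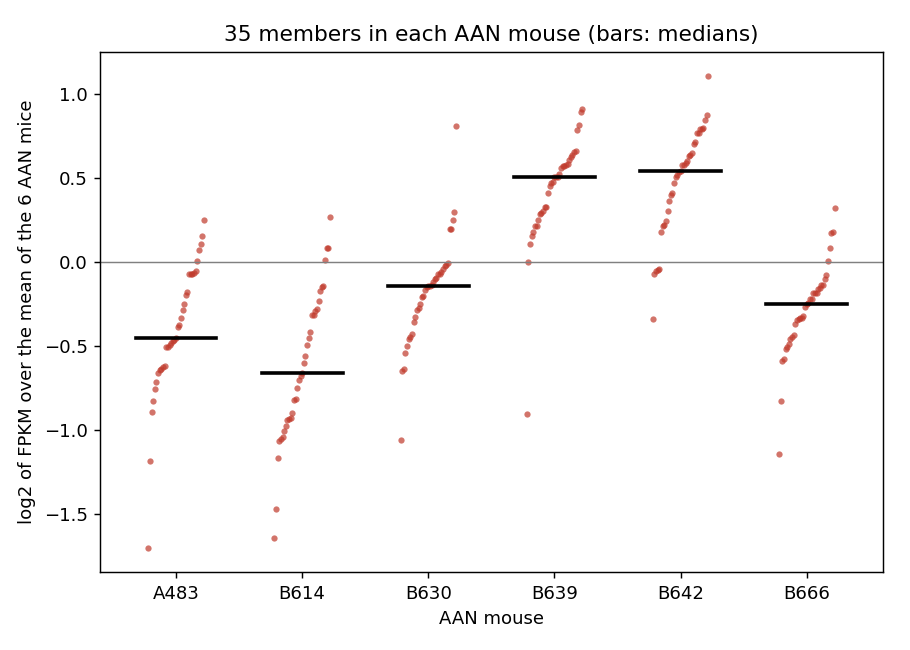
Log2 of the level over the mean of the 6 AAN mice, for the 35 members with an AAN mean of at least 1 FPKM (*Trbd1* left out), 1 point per gene in each AAN mouse, with bars at the medians. Mice B639 and B642 lie above the mean in 33 and 30 of 35 genes, and B614 in 4.

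In B614 the summed macrophage markers were lowest as well, at 624 FPKM against 1281 to 2167 FPKM in the other AAN mice, and its summed proximal tubule markers were highest, at 2158 FPKM against 569 to 919 FPKM. Of 8 proximal tubule markers, 6 fell in AAN mice. Of 6 neutrophil markers 5 rose, from a summed 0.329 to 2.88 FPKM to 4.43 to 18.0 FPKM. B cell markers were low but rose, from a summed 0.706 to 1.36 FPKM in sham mice to 4.90 to 12.2 FPKM in AAN mice. The 4 tested of 6 were called higher, and *Ms4a1* and *Pax5* were under the filter. Of 6 mast cell markers, 3 had values, 2 were tested and both rose, and *Cpa3* was at 0 in all sham mice and in most AAN mice. None of 6 endothelial markers was called, with a summed 28.3 to 49.0 FPKM in sham mice and 43.3 to 62.5 FPKM in AAN mice. Their part in the differences between AAN mice was not tested.

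Other genes were counted in 4 lists. The last of these, of checkpoint ligands and further inhibitory or costimulatory genes, is not limited to genes of T and NK cells. By the same rule 35.8% of all 17129 genes tested rose, and their median log2 fold change was 0.75. Of 44 further genes of T cell signalling and lineage, 40 rose, with a median log2 fold change of 3.69. Those with the highest AAN mean were the surface antigen *Cd52* (means of 4.83 FPKM in sham mice and of 159.8 FPKM in AAN mice, log2 fold change 4.91 ± 0.36), *Klf2*, a factor of quiescent and recirculating lymphocytes that is also made by endothelium (8.58 and 22.6 FPKM, 1.32 ± 0.30), and *Il2rg*, the common cytokine receptor chain (1.36 and 25.0 FPKM, 4.17 ± 0.31). The 4 not called, named after their values were seen, were *Txk*, *Bcl11b*, *Satb1* and *Ets1*, with log2 differences of 0.83, 0.99, 0.87 and 1.61. *Txk*, *Bcl11b* and *Satb1* missed only the fold limit, and *Ets1* missed only the limit on p (limma, adjusted p = 0.0841). *Klf2* overlapped between the groups and was not called after scaling by the median of ratios, at 0.56, or by quantiles, at 0.77.

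Of 27 helper and effector genes with values, 23 were tested and 17 rose, with a median log2 fold change of 2.71. The chemokine *Ccl5* went from 1.65 to 100 FPKM (log2 fold change 5.71 ± 0.41), the protease *Ctsw* from 0.536 to 28.1 FPKM (5.59 ± 0.43) and the chemokine *Xcl1* from 0.375 to 20.9 FPKM (5.74 ± 0.62). The 5 not called, named after their values were seen, were *Rora*, *Maf*, *Bcl6*, *Gzmm* and *Id2*, with log2 differences of 0.71, 0.31, 0.61, 0.37 and −0.32. Of these, *Rora* missed only the fold limit. The type 2 cytokines *Il4*, *Il5* and *Il13* and the follicular helper cytokine *Il21* were too low to test.

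Of 31 genes of NK and unconventional T cells with values, 25 were tested and 22 rose, with a median log2 fold change of 2.22. The 3 with the highest AAN mean were the signalling adaptors *Tyrobp* (12.2 and 267 FPKM, log2 fold change 4.35 ± 0.38) and *Fcer1g* (4.41 and 125 FPKM, 4.64 ± 0.38) and the Fc receptor *Fcgr3* (1.003 and 39.9 FPKM, 5.05 ± 0.36), all of which macrophages also make. The 3 not called, named after their values were seen, were *Sox13*, *Zbtb16* and *Nfil3*, with log2 differences of 0.58, 0.48 and −0.70. *Sox13* and *Nfil3* missed only the fold limit. The NK receptor genes *Klrc2*, *Klre1*, *Klra1*, *Klra4* and *Klra8*, and also *S1pr5*, were too low to test.

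Of 29 checkpoint ligands and further inhibitory or costimulatory genes tested, 26 rose, with a median log2 fold change of 2.66. *Clec2d*, a ligand of an NK receptor, went from 31.3 to 126 FPKM (log2 fold change 1.92 ± 0.34), *Nectin2*, a ligand of TIGIT, from 7.32 to 27.5 FPKM (1.88 ± 0.18), and *Fgl2*, a secreted and membrane protein of regulatory T cells and macrophages, from 0.702 to 22.3 FPKM (4.89 ± 0.31). The 3 not called, named after their values were seen, were *Nt5e*, *Fgl1* and *H60b*, with log2 differences of 0.12, 0.20 and 0.40. The sham means of *Clec2d* and *Nectin2* lay above the 0.436 FPKM of *Cd3e*. Which cells made the genes of this list was not tested.

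The RefSeq promoter sequences (GRCm38.p6, 250 bases before to 50 after each gene's start) covered 28 of the 44 members. The RUNX spelling TGTGGT, on either strand, was in 12 of the 28, or 42.9%, against 18.9% of the 27025 genes with a promoter. The ETS spelling GGAAGT was in 12, or 42.9%, against 26.5%. Of the other spellings counted, the NFAT spelling GGAAAA was in 21.4% of members and 26.1% of all genes, the GATA spelling AGATAA in 14.3% and 12.7%, the E box CAGCTG in 28.6% and 18.3%, the T-box spelling GGTGTGA in 7.1% and 4.6% and the CRE TGACGTCA in 3.6% and 2.0%. A further 3 spellings, the ETS spellings AGGAAG and ACAGGAA and the T-box spelling AGGTGTGA, were in 57.1%, 21.4% and 3.6% of members and in 38.4%, 9.7% and 1.5% of all genes, and AGGAAG can share bases with GGAAGT. These 10 spellings were chosen by hand, and a match is a description of letters, with no test.

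Promoters of 4 members are printed, with matches to the RUNX spelling TGTGGT and to the ETS spelling GGAAGT, on either strand, in capitals: *Cd3e* (chr9:45009562-45009861, minus strand) for the receptor complex, *Tigit* (chr16:43664135-43664434, minus strand) for the inhibitory receptors, *Gzmb* (chr14:56262285-56262584, minus strand) for the granules and *Ncr1* (chr7:4337465-4337764, plus strand) for the NK receptor that was not called. Of these spellings, *Cd3e* holds GGAAGT 1 time, *Tigit* holds TGTGGT 1 time, and *Gzmb* and *Ncr1* each hold TGTGGT 2 times. *Cd3e* also holds the ETS spellings AGGAAG and ACAGGAA, which are not in capitals except where they share bases with GGAAGT.
Cd3e promoter: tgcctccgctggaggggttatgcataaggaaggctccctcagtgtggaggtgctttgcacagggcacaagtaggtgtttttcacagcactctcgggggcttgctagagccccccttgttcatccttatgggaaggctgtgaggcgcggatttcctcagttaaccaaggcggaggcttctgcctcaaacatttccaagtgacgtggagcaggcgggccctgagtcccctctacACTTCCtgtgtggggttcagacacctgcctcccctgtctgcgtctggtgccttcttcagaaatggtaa
Tigit promoter: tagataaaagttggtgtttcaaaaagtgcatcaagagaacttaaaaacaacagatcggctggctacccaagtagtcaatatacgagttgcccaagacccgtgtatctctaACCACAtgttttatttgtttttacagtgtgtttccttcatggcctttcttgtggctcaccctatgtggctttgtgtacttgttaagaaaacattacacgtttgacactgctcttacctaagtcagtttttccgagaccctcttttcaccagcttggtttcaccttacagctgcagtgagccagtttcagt
Gzmb promoter: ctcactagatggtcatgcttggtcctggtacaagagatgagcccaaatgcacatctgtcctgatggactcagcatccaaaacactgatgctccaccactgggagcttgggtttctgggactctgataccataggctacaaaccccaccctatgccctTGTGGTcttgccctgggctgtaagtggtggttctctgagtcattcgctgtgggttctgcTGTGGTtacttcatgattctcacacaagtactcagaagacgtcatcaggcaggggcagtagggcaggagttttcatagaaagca
Ncr1 promoter: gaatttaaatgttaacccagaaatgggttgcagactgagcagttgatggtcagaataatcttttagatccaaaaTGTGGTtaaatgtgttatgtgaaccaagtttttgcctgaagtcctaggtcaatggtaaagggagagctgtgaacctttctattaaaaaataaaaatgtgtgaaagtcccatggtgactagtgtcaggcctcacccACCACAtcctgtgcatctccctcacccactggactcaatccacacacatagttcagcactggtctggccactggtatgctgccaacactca
Matches to TGTGGT were present both in *Gzmb*, which rose, and in *Ncr1*, which did not pass.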

How the data were processed

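The authors prepared paired-end TruSeq libraries from mouse kidney RNA, filtered the reads, mapped them to GRCm38.p4 with Hisat2 2.0.4, and deposited FPKM values for known gene models from Stringtie 1.3.0. The study tested with edgeR, which needs counts. The deposited values are FPKM, so limma 3.58.1 in R 4.3.3 (trend and robust) was used on log2(FPKM + 0.1), for genes whose average in the 10 mice reached 0.1 FPKM, with Benjamini-Hochberg adjustment over all 17129. Calls needed an adjusted p up to 0.05 together with a change to 2 times or more, or to 0.5 times or less. No scaling was added. The 10 gene pairs were tested with exact two-sided permutation tests over all 210 divisions of the mice into 4 and 6, adjusted over the 10 pairs.

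Depth came from the steps between FPKM values under 0.3 in genes with 1 transcript, where 95.1% to 97.0% of values were whole fragments (tolerance 0.05). Genes with several transcripts gave no fragment counts. Floors of 3 fragments were set over the longest transcript of a gene. These floors and the intervals cover counting error only. Symbols came from GENCODE M21 for 21650 of the 21792 genes. Strand use in the counting is not given in the sources used here, so that genes overlapping others are uncertain. The labels name each mouse by a tag and give no batch. No tag says which mice shared a cage or litter.

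The members, gene lists, pairs and motif spellings were chosen with earlier results of these data known. From each list, the 3 called genes with the highest AAN mean and every gene called lower were named, except 1 gene that is not reported here. Not analysed here were *Il17a*, *Cma1*, *Fcer1a*, *Mcpt4* and *Tpsb2*. The symbols *Trgc1* and *Trgc2* matched no gene, but these gamma chain genes were counted under the symbols *Tcrg-C1* and *Tcrg-C2*. Both were called higher, with log2 fold changes of 3.72 ± 0.58 and 5.29 ± 0.61. On simulated data of 17129 genes, the fit tested 15186 and found 91.6% of 178 changed genes, with 9 false calls. Scripts ran in Python 3.11.15 with scipy 1.17.1, numpy 2.4.6, matplotlib 3.10.9 and pandas 2.3.3. The alternatives were pseudocounts of 1 and 0.01, a stricter filter (average of 1 FPKM) or none, scaling by the median of ratios, quantiles or total FPKM, limma without trend and robust, no fold limit, each mouse left out, and the mice with B tags alone.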

Additional observations from a re-analysis of the deposited data

Results flagged for a closer look

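In 10 of 106 groups of values, 1 mouse stood apart from its group, where chance gives about 1 in 20, or 5.3. In 4 of these groups the other 3 sham mice were at 0 and any value above 0 stands apart: *Foxp3* at 0.00905 FPKM in H249, *Pdcd1* at 0.0296 FPKM in B607, *Tigit* at 0.119 FPKM in B607 and *Klrb1c* at 0.0498 FPKM in H249. In sham mouse B634, *Lck* was at 0.134 FPKM, under the 0.439 to 0.498 FPKM of the other sham mice.

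Among AAN mice, *Trbd1* was at 6.22 FPKM in B639, above the 5.06 to 5.37 FPKM of the others. Each of these values is 1 fragment, and B639 had the fewest fragments, 13313000. *Tox* was at 1.35 FPKM in B642 against 0.704 to 0.944 FPKM, and *Klrb1c* in the same mouse at 0.364 FPKM against 0.0654 to 0.150 FPKM. *Tcf7l2* was at 0.762 FPKM in B666 against 0.240 to 0.418 FPKM. The within-mouse log2 difference of *Gzmb* minus *Gzma* was 1.71 in B639, against −0.27 to 0.35 in the other AAN mice.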

How the results depend on the processing

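The number of members called higher ran from 31 to 43 over the alternatives, and no member fell under any. Under a pseudocount of 1 it was 34, where 16.98% of all genes tested were called higher. Under a mean of at least 1 FPKM it was 31, where 32.8% of all genes were called higher and fewer members were tested. The count was 43 after scaling by total FPKM, against 51.59% of all genes, and with no fold limit, against 55.4%. With each mouse left out it was 40 to 42, against 31.85% to 38.82% of all genes. Of 1052 values for 56 named genes, 1028 kept their direction and their side of the limits, 17 lost the call, 5 gained it and 2 changed sign, *Tcf7l2* (−0.43) and *Ncr1* (−0.0855), both under quantile normalization. *Gata3* lost its call under 6 alternatives, among them leaving out B614 (0.97) or B639 (0.96). The counts of 2 lists fell by over 1.5 times with a pseudocount of 1 or a mean of at least 1 FPKM: from 17 to 9 and 7 for helper and effector genes, and from 22 to 11 and 10 for NK and unconventional T genes, the stricter filter testing fewer genes.

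The 4 pairs that passed kept direction and call under every alternative. With pseudocounts of 1 and 0.01, *Foxp3* minus *Cd4* was −1.46 and 1.79, *Ctla4* minus *Cd3e* −1.71 and 2.70, *Pdcd1* minus *Cd3e* −1.59 and 2.38, and *Gzmk* minus *Cd8a* −0.38 and 1.94, all past the limit except the −0.38. After scaling by the median of ratios and by quantiles, *Ctla4* minus *Cd3e* was 0.11 and 0.46 and *Pdcd1* minus *Cd3e* 0.17 and 0.38. With each mouse left out, *Cd8b1* minus *Cd8a* ran from 0.16 to 0.79 (highest, and called, without H249), *Foxp3* minus *Cd4* from −0.88 to −0.44 (called without B607), *Ctla4* minus *Cd3e* from −0.40 to 0.13 and *Pdcd1* minus *Cd3e* from −0.36 to 0.17 (both above 0 without B634). The cause was not tested. No paired analysis was possible because no tag is shared between the groups. Sham values at or under 3 fragments set the limit of depth.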
